A study of Homo sapiens with 4 samples.

Results

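*DAB2* and 9 genes of transforming growth factor beta (TGF-beta) signaling were compared between FLO-1LM and FLO-1 parental cells. The 10 genes were selected by symbol from the 63677 genes listed for each library, and all 10 passed the filter on low counts that left 17143 genes for the fit. They are the ligands *TGFB1* and *TGFB2*, the receptors *TGFBR1* and *TGFBR2*, the signal transducers *SMAD2*, *SMAD3* and *SMAD4*, the inhibitors *SMAD7* and *SKIL*, and the adaptor *DAB2*. The list was drawn up with results of this same contrast already known. Differences between the lines in these 10 genes are therefore given as a description, with standard errors but no p-value, and whether a gene lay past the cut-off is stated only as a fact of the fit.

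FLO-1 is an established line of human esophageal adenocarcinoma cells, and FLO-1LM is a subline grown from a liver deposit that FLO-1 cells had formed after repeated passage through NSG mice. Both were sampled as cultures that had not reached confluency, with 2 RNAseq libraries per line, called replicate 1 and replicate 2 here. FLO-1LM is 1 derived line, so the comparison is between 2 lines and not between metastases and primary tumors. The labels do not say whether replicates were grown as separate cultures, so p-values measure only the spread between these libraries, which may be technical. In bulk RNA, fewer cells that express a gene and less RNA per cell cannot be told apart.

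TGF-beta ligands are secreted in a latent form and, once released, bring together the type II receptor TGFBR2 and the type I receptor TGFBR1, which phosphorylates SMAD2 and SMAD3. These join SMAD4, enter the nucleus and act on target genes, among them *SMAD7* and *SKIL*, whose products restrain the pathway. In epithelial cells the pathway is known for growth arrest and for epithelial-mesenchymal transition. DAB2 is a clathrin adaptor that carries receptors into endocytic vesicles and that can bind TGF-beta receptors and receptor-regulated SMADs.

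Total counts ran from 19060310 to 25920336 per library. The epithelial markers *KRT8*, *KRT18*, *KRT19*, *EPCAM*, *CDH1*, *CLDN4* and *CLDN7* summed to between 490.0 and 506.0 CPM (read counts relative to the TMM-scaled library size) in FLO-1LM and between 864.0 and 874.5 in parental cells. *EPCAM* was close to 0 in every library, with 3 to 12 counts, and *CLDN7* was low, with 16 to 32. Neither of them was lower in mean CPM in FLO-1LM. The 8 fibroblast markers summed to between 10.95 and 14.4 CPM, with *COL3A1*, *DCN* and *POSTN* at 0. Most of that sum came from *COL1A1*, which had 9.70 to 12.7 CPM per library. The 7 liver cell markers summed to at most 0.350 CPM, with *ALB* and *TTR* at 0. The 7 blood cell markers summed to at most 1.17 CPM, with *PTPRC* at 0. Of 6 endothelial markers 5 were matched, *KDR* was at 0, and *CLDN5*, which epithelial cells can also express, gave nearly all of the 24.7 to 33.7 CPM. The part of the lower epithelial marker level in the results below was not tested.

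The promoters of *DAB2* and *SKIL* are shown first, because *DAB2* is the gene of the 10 with the widest difference between the lines and *SKIL*, a direct SMAD target and feedback inhibitor, hardly differed. Each sequence is the 250 bases before a RefSeq start of the gene, which is also that of its canonical transcript. It is read 5′ to 3′ on the strand of the gene and placed on GRCh37 by an exact match. Both windows lie inside the annotated span of their gene, which begins further upstream, at 39462402 for *DAB2* and 170075130 for *SKIL*. Sequence before any other start is not shown. Capitals mark GTCTG or its reverse complement CAGAC, the short element that SMAD proteins recognise.
DAB2, chr5:39425083-39425332, reverse strand: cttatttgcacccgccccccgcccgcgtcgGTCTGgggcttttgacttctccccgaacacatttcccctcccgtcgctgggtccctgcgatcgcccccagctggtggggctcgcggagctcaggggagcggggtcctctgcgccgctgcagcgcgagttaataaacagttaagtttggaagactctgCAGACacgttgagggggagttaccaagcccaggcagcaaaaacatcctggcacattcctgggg
SKIL, chr3:170075253-170075502, forward strand: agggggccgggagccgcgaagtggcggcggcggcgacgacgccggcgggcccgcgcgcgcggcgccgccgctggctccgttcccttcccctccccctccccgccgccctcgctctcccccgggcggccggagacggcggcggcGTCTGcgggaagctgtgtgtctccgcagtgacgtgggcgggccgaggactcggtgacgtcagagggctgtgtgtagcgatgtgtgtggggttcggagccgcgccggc
The *DAB2* window holds 2 copies, which begin at −220 and −63 counted from the start, and the *SKIL* window holds 1, which begins at −107. Of 35116 such windows in the RefSeq table, 38.0% hold at least 1 copy on either strand. A match is therefore a description of the letters only, and binding was not tested. The windows also differ in base composition, with 62.4% G and C for *DAB2* and 78.4% for *SKIL*.

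*DAB2* (ENSG00000153071, GRCh37 chromosome 5 from 39371777 to 39462402, reverse strand) was the member with the largest difference. It had 142 and 118 counts in FLO-1LM replicates 1 and 2, and 50 and 13 counts in parental replicates 1 and 2. Scaled to library size, its level was 6.37 and 4.58 CPM in FLO-1LM and 2.27 and 0.678 CPM in parental cells. Both FLO-1LM libraries lay above both parental libraries. The means were 5.48 ± 1.27 CPM in FLO-1LM and 1.47 ± 1.12 CPM in parental cells (SD, n = 2 each), and the log2 fold change, FLO-1LM against parental, was 1.86 with a standard error of 0.40, or 3.63-fold. It was the only one of the 10 members past the cut-off of the fit (adjusted p below 0.05, edgeR quasi-likelihood). Of all 17143 genes, 0.402% passed that cut-off with a higher level in FLO-1LM, 1.83% with a lower level and 2.23% in either direction. Since this contrast was known when the list was made, nothing is read from that count.

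The parental libraries differed from each other in *DAB2* by more than the FLO-1LM libraries did. Exact Poisson 95% intervals, which cover counting error only, ran from 1.68 to 2.99 CPM in parental replicate 1 and from 0.361 to 1.16 CPM in parental replicate 2, so these 2 libraries of 1 line were apart by more than counting error. In FLO-1LM the intervals were 5.37 to 7.51 CPM and 3.79 to 5.49 CPM, and they overlapped. The fold between the libraries of a line was 3.35 for the parental pair and 1.39 for the FLO-1LM pair.

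Genes with a similar number of reads in the same line give a background for this spread. *DAB2* averaged 31.5 counts in the parental libraries, and of the 2955 other genes that averaged between 15.75 and 63 there, 23 (0.778%) had as wide a fold between the parental libraries, with a median fold of 1.31. Over all tested genes 181 others had as wide a parental fold. In FLO-1LM *DAB2* averaged 130 counts, and of the 2872 other genes between 65 and 260 there, 24.1% had as wide a fold between the FLO-1LM libraries, with a median of 1.20. With genes chosen instead by their mean over all 4 libraries, from 40.4 to 161.5 counts, 1 of 2773 had as wide a parental fold, although the parental mean of *DAB2* itself lies below that range. That gene is ENSG00000266999, named after its values were seen, with 63 and 16 counts in the parental libraries and 38 and 45 in FLO-1LM.

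**Figure D1:**
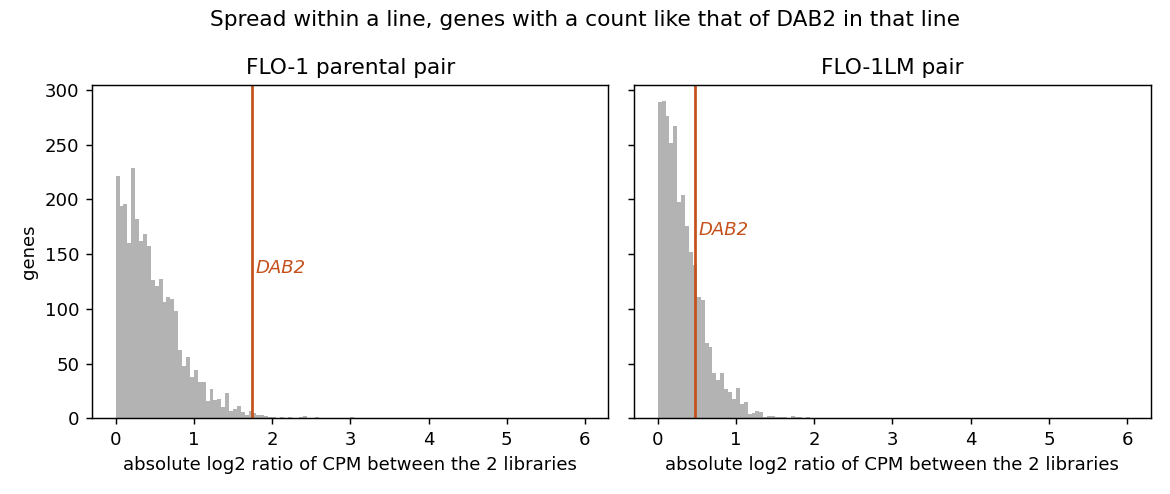
Histograms of the absolute log2 ratio of CPM between the 2 libraries of a line (vertical axis, number of genes), parental on the left and FLO-1LM on the right, for *DAB2* and the 2955 and 2872 other genes with a similar mean count in that line. The line for *DAB2* lies at a fold of 3.35 in the parental pair, which 23 of the 2955 genes reach, and at 1.39 in the FLO-1LM pair, which 24.1% reach.

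The size of the *DAB2* difference accordingly rested on which parental library was used. The FLO-1LM mean was 2.42-fold above parental replicate 1 and 8.08-fold above parental replicate 2. Refitted without parental replicate 2, *DAB2* had a log2 fold change of 1.27 with a standard error of 0.40 and was not past the cut-off. Refitted without parental replicate 1, it had a log2 fold change of 3.002 with a standard error of 0.51. *DAB2* was higher in FLO-1LM in each of the 11 alternative fits and past the cut-off in 10 of them.

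The ligand genes had nearly the same level in both lines. *TGFB1*, whose product is the most widely expressed TGF-beta, had 47.6 and 40.1 CPM in FLO-1LM and 41.6 and 43.8 CPM in parental cells. Its FLO-1LM values enclosed the parental ones, and its log2 fold change was 0.038 with a standard error of 0.11. *TGFB2*, the second ligand, had 60.8 and 56.6 CPM in FLO-1LM and 60.7 and 54.1 CPM in parental cells, which also overlap. The log2 fold change of *TGFB2* was 0.029 with a standard error of 0.095. *TGFB1* shares 215 exon bases with *HNRNPUL1* on the opposite strand, a gene with 3554 to 5023 counts per library, and since the strand setting of the counting is not stated, some reads could have been assigned to either gene. *TGFB2* shares 701 with *TGFB2-AS1*, which had 2 to 11 counts.

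The receptors differed little as well. *TGFBR1*, the signaling kinase, had 91.6 and 88.5 CPM in FLO-1LM and 86.1 and 87.4 CPM in parental cells. The lines did not overlap, but the gap was small, with a log2 fold change of 0.054 and a standard error of 0.082. *TGFBR2*, the ligand-binding receptor, had 24.5 and 19.5 CPM in FLO-1LM and 17.6 and 20.4 CPM in parental cells. These values overlap, and the log2 fold change of *TGFBR2* was 0.21 with a standard error of 0.15.

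Among the SMADs that carry the signal, *SMAD3* had the largest difference. It had 119.7 and 119.0 CPM in FLO-1LM and 152.5 and 140.2 CPM in parental cells, and both FLO-1LM libraries were below both parental ones. Its log2 fold change was −0.29 with a standard error of 0.079, or 0.815 of the parental level. *SMAD3* was not past the cut-off in the fit of all 4 libraries, and it was past it in 5 of the 11 alternative fits, which were those with library totals only, with no low-count filter, with at least 10 counts in every library, and without either FLO-1LM library. *SMAD2*, its partner in receiving the receptor signal, had 98.3 and 93.0 CPM in FLO-1LM and 89.7 and 88.5 CPM in parental cells. The values of *SMAD2* did not overlap either, but in the opposite direction and by less, with a log2 fold change of 0.10 and a standard error of 0.081.

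*SMAD4*, the partner common to TGF-beta and BMP signals, had 75.003 and 62.1 CPM in FLO-1LM and 76.2 and 66.2 CPM in parental cells. The ranges overlap, with a log2 fold change of −0.057 and a standard error of 0.10. *SMAD2*, *SMAD4* and *SMAD7* lie near each other on chromosome 18 of GRCh37, from 45335328 to 45457517, from 48554898 to 48611415 and from 46446223 to 46477335, and they had no shift in common. Loss of *SMAD4* is frequent in gastrointestinal cancers, and these counts show its transcript in every library, at 1270 to 1679 reads, without bearing on its sequence or its protein.

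Of the 2 feedback inhibitors, *SMAD7*, which blocks the type I receptor, was low, at 5.03 and 5.13 CPM in FLO-1LM and 4.40 and 3.70 CPM in parental cells. Its FLO-1LM values were just above the parental ones, and with 71 to 132 counts per library the log2 fold change of 0.32 had a standard error of 0.25. *SKIL*, the co-repressor SnoN, had 29.6 and 23.0 CPM in FLO-1LM and 24.7 and 25.9 CPM in parental cells. The FLO-1LM values of *SKIL* lay on both sides of the parental ones, and its log2 fold change was 0.056 with a standard error of 0.13.

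**Figure D2:**
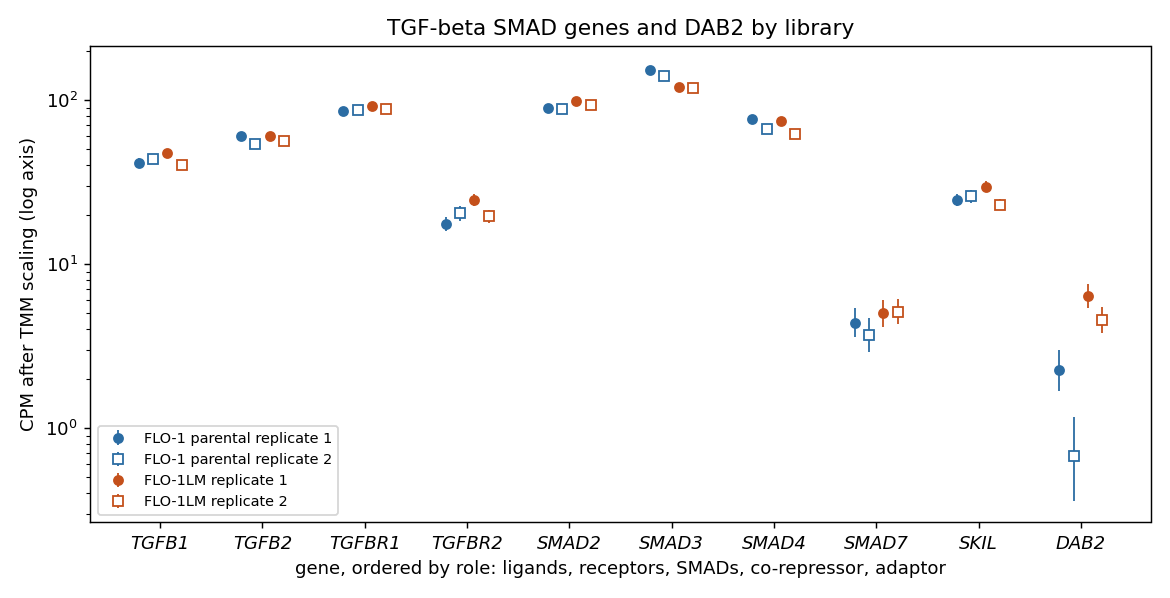
CPM after TMM scaling on a log axis for the 10 genes, ordered by role, in each of the 4 libraries (circles, replicate 1, open squares, replicate 2, blue, parental, orange, FLO-1LM), with exact Poisson 95% intervals as bars. The 4 points of each TGF-beta gene lie close together, whereas those of *DAB2* run from 0.678 to 6.37 CPM.

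Without *DAB2*, the log2 fold changes of the 9 other members ran from −0.29 to 0.32, with a median of 0.054, beside a median of 0.0016 and quartiles of −0.14 and 0.13 over all genes tested. Their standard errors ran from 0.079 to 0.25, and their fold between libraries of a line was at most 1.28. *SMAD3*, at −0.29 with a standard error of 0.079, was still not past the cut-off. At this depth and with 2 libraries per line, differences of several standard errors could therefore be missed. CPM did not overlap between the lines for 5 of the 10 members, 4 of them higher and 1 lower in FLO-1LM, which stands beside 42.6% of all tested genes in either direction and 20.9% higher. Leaving out 1 library moved *DAB2* far more than any other member, and the log2 fold changes of *TGFB1*, *TGFB2*, *SMAD4* and *SKIL* took either sign in these fits.

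**Figure D3:**
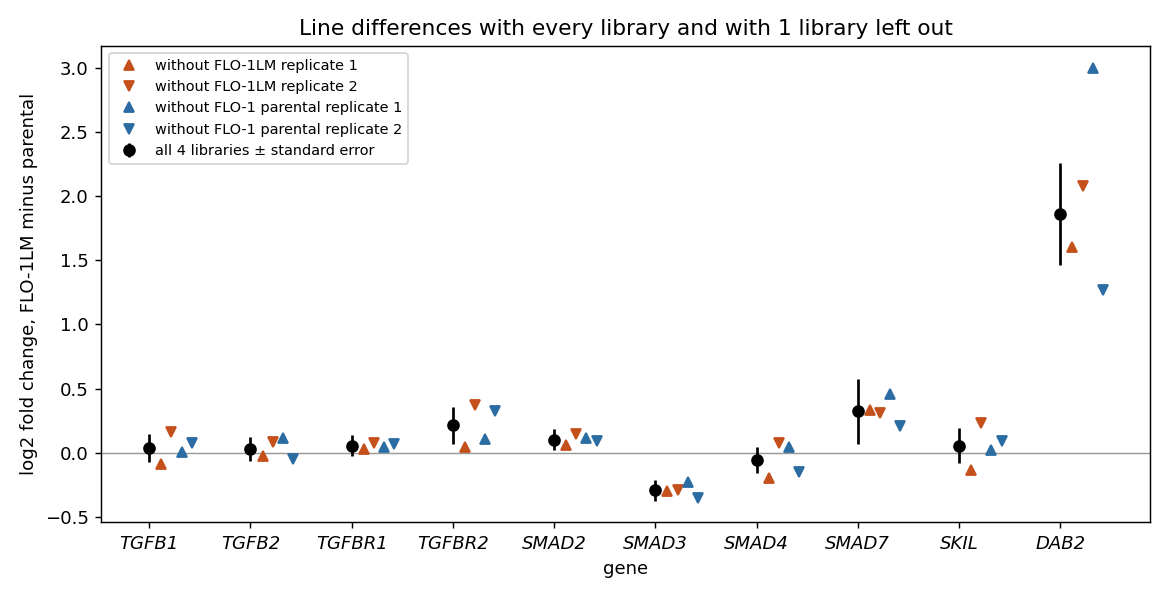
Log2 fold change, FLO-1LM minus parental (vertical axis), of the 10 genes in the fit of all 4 libraries (black, with its standard error) and in 4 fits that each leave out 1 library (triangles). The values of *DAB2* spread from 1.27 to 3.002. Those of the other genes stay between −0.35 and 0.46, with *SMAD3* from −0.35 to −0.23 and *SMAD7* from 0.21 to 0.46.

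To set levels of different genes beside each other, CPM was divided by the length of the canonical transcript. On this scale *SMAD3* was highest, at 18.5 ± 0.076 CPM per kilobase in FLO-1LM and 22.6 ± 1.35 in parental cells (SD, n = 2 each). *TGFB1* followed with 15.8 ± 1.90 and 15.4 ± 0.549, *TGFBR1* with 13.9 ± 0.332 and 13.4 ± 0.143, *TGFB2* with 10.001 ± 0.504 and 9.79 ± 0.796, and *SMAD4* with 7.81 ± 1.04 and 8.12 ± 0.800. In FLO-1LM the levels of *TGFB1* and *TGFBR1* were about 1 SD of *TGFB1* apart, and their order is not firm. *TGFBR2* had 4.86 ± 0.776 and 4.19 ± 0.436 and *SKIL* 3.68 ± 0.647 and 3.53 ± 0.118 CPM per kilobase. *SMAD7*, at 1.52 ± 0.021 and 1.21 ± 0.148, and *DAB2*, at 1.26 ± 0.291 and 0.339 ± 0.259, were lowest, and in FLO-1LM these 2 did not differ beyond the spread of *DAB2*. The place of *SMAD2* could not be fixed, since its level was 2.76 ± 0.108 and 2.57 ± 0.024 CPM per kilobase on a canonical transcript of 34626 bases but 69.4 and 64.7 on the median length of its coding transcripts, 1378 bases. On that median length *DAB2* was again the lowest of the 10, with 1.999 and 0.538 CPM per kilobase, and *SMAD7* stood apart from it at 4.18 and 3.33. Other places moved as well. *SKIL*, at 5.31 and 5.10, was then above *TGFBR2*, at 4.82 and 4.16, and in FLO-1LM *SMAD2* was above *SMAD3*, at 61.3. The order therefore depended on the length chosen.

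The genes whose pattern was nearest to that of *DAB2* were found by the distance between centred log2 CPM profiles over the 4 libraries. They were *ARHGAP24*, a pseudogene *TAF9P3*, *DCHS2*, the long noncoding RNA ENSG00000224818 and *FTCDNL1*, at distances from 0.33 to 0.45. All 5 had few reads, with 13 to 19 counts per FLO-1LM library and 0 to 7 per parental library. They passed the low-count filter through their FLO-1LM libraries only, and the prior count of 2 shapes their parental values. The likeness is therefore a description, and nothing is read from it. *ARHGAP24*, the nearest, had 16 and 13 counts in FLO-1LM and 3 and 0 in parental cells. None of the other 9 members was among them.

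The surrounding machinery was read from 11 lists of 214 genes, drawn up by role from general knowledge, though with earlier results of this contrast known, so their counts are not independent evidence. Of these genes 186 could be tested, and 4 were higher and 6 lower in FLO-1LM past the same cut-off. This is 5.38% of those tested, beside 2.23% of all genes. The median log2 fold change over the 186 genes was 0.020. They are 1 ligand gene, 2 receptor genes, the inhibitory *SMAD6*, 2 SMAD partner factors, 3 TGF-beta targets and 1 BMP target.

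Both members of the receptor list that changed fell. *TGFBR3* encodes betaglycan, a co-receptor that presents TGF-beta 2 to TGFBR2. It had 103.9 and 99.2 CPM in FLO-1LM and 151.0 and 136.7 CPM in parental cells, with a log2 fold change of −0.50 (SE, the standard error, 0.081, edgeR adjusted p = 0.0015). *BAMBI*, a receptor-like protein without a kinase domain that damps both TGF-beta and BMP signals, had 50.9 and 47.8 CPM against 66.8 and 71.4, a log2 fold change of −0.49 (SE 0.092, edgeR adjusted p = 0.0066). For both genes every FLO-1LM library was below every parental one. They are 20% of the receptor genes tested, beside 2.23% of all genes. The other 8 receptor genes tested did not pass the cut-off. Their range included *BMPR2*, the BMP type II receptor, at −0.0048 on the log2 scale, and *ENG*, endoglin, at −2.86 with a standard error of 0.97 on 1 to 15 counts per library, and a noncoding RNA with 204 to 290 counts overlaps *ENG* on the opposite strand.

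*SMAD6*, the inhibitory SMAD of the BMP branch, fell from 25.9 and 28.2 CPM in parental cells to 16.4 and 18.1 CPM in FLO-1LM, a log2 fold change of −0.65 (SE 0.13, edgeR adjusted p = 0.011). *SMAD1*, *SMAD5* and *SMAD9*, which carry BMP signals, did not pass the cut-off, and *SMAD5* was the most abundant of them, with 114.4 and 116.2 CPM against 110.7 and 102.4. *ID1*, an inhibitor of helix-loop-helix factors and a direct BMP target, fell from 94.4 and 97.9 CPM in parental cells to 79.6 and 61.5 CPM in FLO-1LM, a log2 fold change of −0.45 (SE 0.10, edgeR adjusted p = 0.025). Of the 11 BMP target genes tested, *SMAD6*, *BAMBI* and *ID1* fell, which is 27.3% beside 2.23% of all genes in either direction. Since the list was drawn up with this contrast known, nothing is read from that share. *SMAD6* and *BAMBI*, which encode inhibitors of the pathway itself, are also counted in other lists here. The other 8 did not pass the cut-off, among them *ID2* at 0.13 and *ID3* at 0.25 on the log2 scale, and the median of the list was 0.10.

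*GDF11*, an activin-like ligand that signals through SMAD2 and SMAD3, rose from 5.63 and 6.05 CPM in parental cells to 10.1 and 10.5 CPM in FLO-1LM, a log2 fold change of 0.83 (SE 0.20, edgeR adjusted p = 0.033). It shares 378 exon bases with *SARNP* on the opposite strand, a gene with 26 to 58 counts per library. None of the 13 genes tested for storage and activation of latent ligand passed the cut-off. The most abundant was *LTBP4*, a latent TGF-beta binding protein, with 905.6 and 835.8 CPM in FLO-1LM and 777.1 and 857.8 CPM in parental cells. *LTBP2* had the largest difference of those with at least 50 counts on average, at 0.43 on the log2 scale (SE 0.14, edgeR adjusted p = 0.15). None of the 10 BMP ligands and antagonists tested passed it either. *BMP7* was the most abundant of them, at 33.5 and 34.7 CPM against 33.4 and 33.2, and *BMP4* differed most, at −0.90 on the log2 scale (SE 0.34, edgeR adjusted p = 0.24).

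Inside the cell, 0 of the 20 receptor adaptors and 0 of the 22 SMAD co-repressors and ubiquitin regulators passed the cut-off. The co-repressor *SKI*, the relative of *SKIL*, had 179.0 and 146.2 CPM in FLO-1LM and 177.8 and 175.9 CPM in parental cells. The largest differences with at least 50 counts on average were *TRAF6*, a ubiquitin ligase of the SMAD-independent branch, at 0.44 (SE 0.16, edgeR adjusted p = 0.21), and *WWP1*, a ubiquitin ligase, at 0.26 (SE 0.11, edgeR adjusted p = 0.34). *SHC1*, *USP9X* and *HDAC1*, the most abundant genes of their lists, were at 0.063, −0.040 and −0.17 on the log2 scale. Of 23 SMAD partner factors, 2 passed the cut-off, which is 8.70% beside 2.23% of all genes. *CEBPB* fell, at −0.87 (SE 0.11, edgeR adjusted p = 0.00014), and *ZEB2* rose, at 0.47 (SE 0.12, edgeR adjusted p = 0.046). The call for *ZEB2* was lost in 6 of the 11 alternative fits, with adjusted p = 0.054 in limma voom and 0.127 in DESeq2.

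Of 39 TGF-beta target genes tested, 2 rose, 1 fell and 36 did not pass the cut-off, and the median log2 fold change was 0.041. Those past the cut-off are 7.69% of the list, beside 2.23% of all genes. *CCN1*, a secreted matricellular protein, rose from 104.2 and 102.0 CPM in parental cells to 121.6 and 137.5 CPM in FLO-1LM (log2 fold change 0.33, SE 0.083, edgeR adjusted p = 0.043). *TPM1*, a tropomyosin of actin filaments, rose from 96.3 and 94.5 CPM to 118.1 and 117.7 CPM (log2 fold change 0.31, SE 0.079, edgeR adjusted p = 0.049). *MMP2*, a gelatinase, fell, at −0.64 on the log2 scale (SE 0.11, edgeR adjusted p = 0.0020). Some calls changed when 1 library was left out. Without parental replicate 1 only *CEBPB* of the 10 list genes passed the cut-off, and without parental replicate 2 only *CEBPB*, *TGFBR3* and *MMP2* did. Without FLO-1LM replicate 2, *CCN1* and *ID1* did not pass it. All 10 kept their direction in these fits.

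The target *CCN2*, connective tissue growth factor, named after its values were seen, was at 0.047 on the log2 scale and did not pass the cut-off. *PMEPA1*, a feedback inhibitor from the list of SMAD co-repressors and ubiquitin regulators, also named after its values were seen, was at −0.079. *VIM*, vimentin, was the most abundant target, with 1762 and 1577 CPM against 1565 and 1598. Some matrix targets were almost silent in both lines, with 6 to 13 counts per library for *TGFBI* and 5 to 28 for *FN1*, which encodes fibronectin.

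None of the 34 genes tested among clathrin adaptors and relatives of *DAB2* passed the cut-off, and their median log2 fold change was 0.024. *CLTC*, the clathrin heavy chain, had 737.2 and 737.3 CPM in FLO-1LM and 752.7 and 696.4 CPM in parental cells. *NUMB*, an adaptor with the same type of phosphotyrosine-binding domain as DAB2, was at 0.073 on the log2 scale, and *MYO6*, the myosin motor that DAB2 binds, at 0.090. *FCHO1* had the largest difference with at least 50 counts on average, at 0.32 (SE 0.13, edgeR adjusted p = 0.31). *DAB1*, the neuronal relative, had 0 counts in every library.

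**Figure D4:**
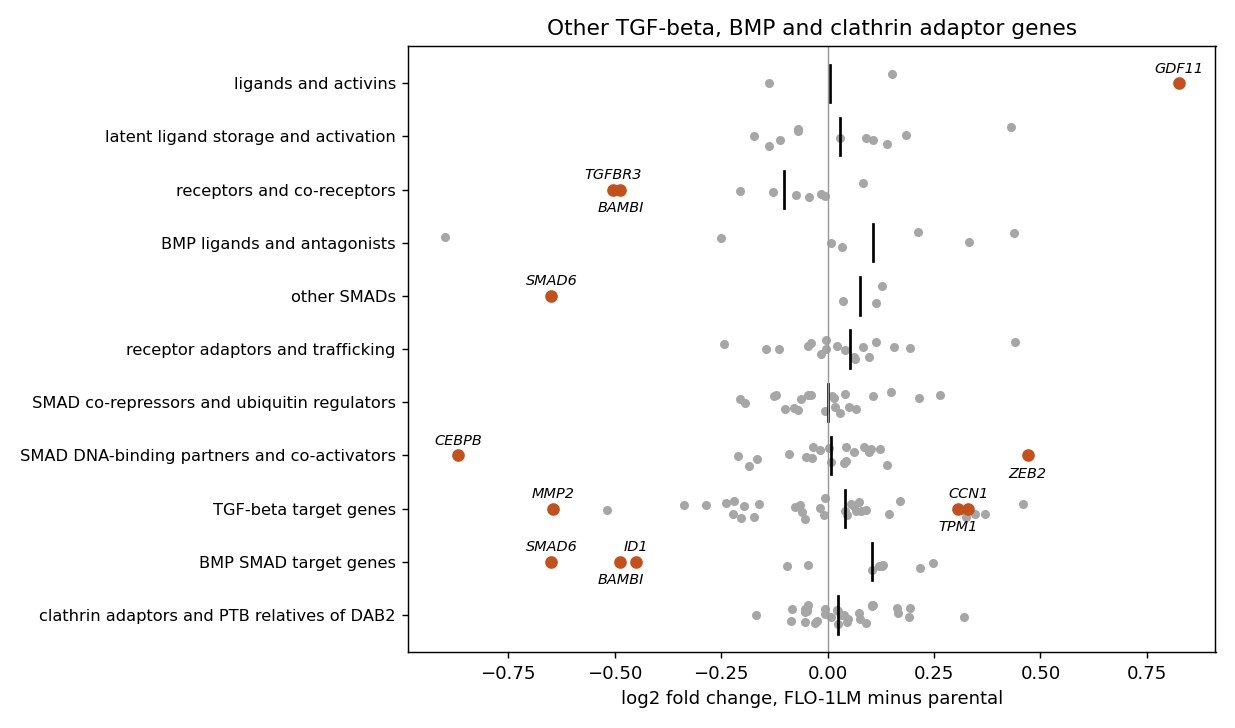
Log2 fold change, FLO-1LM minus parental (horizontal axis), of 172 genes with at least 50 counts on average, each row 1 of the 11 lists and each point 1 gene, with the 10 genes past the cut-off in orange and named. Black bars mark the median over all tested genes of a list. Genes in 2 lists appear in both rows, and most points lie near 0.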

How the data were processed

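RNAseq was analysed for 4 libraries, 2 of FLO-1LM and 2 of FLO-1 parental cells, grouped by the cell line in the sample labels, with replicates numbered by accession. The authors extracted total RNA, made directional libraries, trimmed adapters (Trimmomatic 0.30 per the submitters' processing notes), mapped reads to GRCh37 and deposited raw read counts per Ensembl gene. The aligner, the counter and its strand setting are not given in the sources used here. Genes with few counts were removed by edgeR's filterByExpr (minimum count 10, minimum total 15). TMM factors scaled the library sizes. FLO-1LM was compared with parental cells by the quasi-likelihood test of edgeR 4.0.16 in R 4.3.3, with Benjamini-Hochberg adjustment over all tested genes and a cut-off of 0.05. Standard errors were derived from each log2 fold change and its F statistic.

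The members and the gene lists were chosen with earlier results of these data known. Named from the lists were every gene past the cut-off, the most abundant gene of a list and the gene with the largest difference among those with a mean count of at least 50, and the 5 genes nearest to *DAB2* in pattern (log2 CPM with a prior count of 2). Other genes (for example *BMPR2*, *SKI*, *NUMB* and *MYO6*) were named after their values were seen. The genes set beside *DAB2* for its spread within a line were chosen after the data were seen, as those with a mean count in that line within 2 times its own in either direction. Alternatives were RLE factors, library totals only, DESeq2 1.42.0, limma voom (limma 3.58.1), which the study used, no low-count filter, at least 10 counts in every library, mitochondrial genes left out, and each library left out in turn. The fits were tested on simulated data in which all genes shared the same spread. That test does not cover a gene as uneven within a line as *DAB2*. Gene names came from a reference list by Ensembl ID and, for IDs not in it, from GENCODE mapped to GRCh37. Together they named 43631 of the 63677 gene IDs. Lengths came from GENCODE and promoters from RefSeq. No protein sequence was used here. The values of 1 target gene are not reported here. With 2 libraries per line, the smallest p that exact permutation allows for any gene is 0.333, and the edgeR p-values borrow the spread shared across genes, for which the common biological coefficient of variation was 0.090. No batch or date is labelled, so the lines cannot be told apart from any batch that coincided with them.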

Additional observations from a re-analysis of the deposited data

How the results depend on the processing

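Under 7 alternatives that kept all libraries and 4 that left 1 out, *DAB2* stayed higher in FLO-1LM, with log2 fold changes from 1.83 to 2.02 in the 7 and from 1.27 to 3.002 in the 4. With library totals only, 2 of the 10 members passed the cut-off, *TGFBR1* moved to 0.023 on the log2 scale, and 1 gene of the surrounding lists was past it with a higher level. With no low-count filter, 577 genes passed, 147 of them higher, and 2 members. With at least 10 counts in every library, 203 genes were lower, 2 members passed, and 2 list genes were higher, as they also were with DESeq2 (2). In each of these cases the second member was *SMAD3*. Leaving out 1 library at a time gave 116 (without parental replicate 1) to 1052 (without FLO-1LM replicate 1) genes past the cut-off (20 to 356 higher, 96 to 696 lower), 0 to 2 members, and 1 to 22 list genes (0 to 10 higher, 1 to 12 lower). In these fits only the line with both libraries supplies the spread, and the lone library is assumed to vary like it. In the same fits the log2 fold change ran from −0.13 to 0.23 for *SKIL*, from −0.35 to −0.23 for *SMAD3* and from 0.21 to 0.46 for *SMAD7*. The count of list genes was lowest without parental replicate 1 (1 gene) and without parental replicate 2 (3 genes), and highest without FLO-1LM replicate 1 (22) and FLO-1LM replicate 2 (16). None of the 10 list genes named as changed reversed its direction in any alternative. *ZEB2* missed the cut-off in 6 of 11 alternatives, *CCN1* and *TPM1* in 4 each, *GDF11* and *ID1* in 3 each, *BAMBI* and *SMAD6* in 2 each, and *TGFBR3* and *MMP2* in 1 each, with *CEBPB* past it in all 11. The cause of these changes was not tested. No paired analysis was possible because the labels give no replicate number shared between the lines.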

Other observations

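Parts of the pathway were hardly transcribed in either line. Of the 214 list genes, 28 were not tested for want of counts, and 11 of these had no count in any library. The genes below are named after their values were seen. *INHBA*, the subunit of activin A, had 0 counts in both FLO-1LM libraries and 4 and 8 in the parental libraries. *ITGB6*, the epithelial integrin subunit that releases TGF-beta 1 from its latent form, had 5 and 6 counts in FLO-1LM and 0 in both parental libraries. *ACVRL1*, the type I receptor of endothelial cells, had 0 and 8 counts in FLO-1LM and 30 and 5 in parental cells. *LRRC32*, the surface anchor of latent TGF-beta, had more reads and was among the genes tested. It had 46 and 61 counts in FLO-1LM and 29 and 15 in parental cells, a log2 fold change of 1.07 (SE 0.46, edgeR adjusted p = 0.34).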
